A study of Mus musculus with 18 samples.

Results

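The peroxiredoxins, thioredoxins and glutaredoxins described here are 10 genes of the thiol redox system, Prdx2, Prdx3, Prdx4, Txn1, Txn2, Txnrd2, Glrx, Glrx2, Glrx5 and Txnip, of 18193 genes measured. They were chosen by name, and each was read from the brightest (by its mean over all 18 arrays) of the probe sets annotated with that gene symbol alone. All 10 were found, and 8 of them had more than 1 such probe set, giving 24 probe sets in all. Levels are the deposited log2 values after RMA, a method that corrects the background of Affymetrix arrays, scales the arrays to each other and combines the probes of each set into 1 value. A difference of 1 on this scale is a doubling of signal.

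The study profiled tumours and lung of the B6C3F1/N hybrid mouse, a standard animal of carcinogenicity testing, on 18 arrays in 3 groups of 6. The first group was spontaneous alveolar/bronchiolar tumours. The second was tumours of mice that had breathed an aerosol of cobalt metal particles, at 1.25, at 2.5 or at 5 mg/m3, for 6 hours on each of 5 days a week, for at most 105 weeks. The third was lung of vehicle control mice, at 0 mg/m3. The mice entered the study at 5 to 6 weeks of age. Exposure groups held both sexes, and the labels give neither the sex nor the dose behind a single array, nor the exposure of the mice with spontaneous tumours. Tumours had been dissected from the lung around them before freezing, whereas control lung is a mixture of all lung cell types. In such bulk samples fewer cells of a type and less RNA per cell cannot be told apart. No label states that each of the 6 samples of a group is a different mouse. The p-values therefore speak of the spread between samples, part of which may be technical.

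Peroxiredoxins reduce hydrogen peroxide with a reactive cysteine, thioredoxins reduce the oxidised peroxiredoxins and other protein disulfides, and thioredoxin reductases recharge thioredoxin with electrons from NADPH. Glutaredoxins do related work with electrons from glutathione, and some of them carry iron-sulfur clusters. Txnip binds thioredoxin and inhibits it. In lung epithelium these proteins are part of the defence against peroxides formed by inhaled oxidants and by respiring mitochondria.

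Promoter sequence is shown for 3 of the genes: Glrx and Prdx4, which had the largest differences between tumour and control lung, and Txnip, the gene that was lower. Each window runs from 250 bases before to 50 bases after the transcription start in RefSeq (build GRCm38.p6), 5′ to 3′ on the strand of the gene, with matches to the searched motifs in capitals. The Glrx window lies on the plus strand at chr13:75839635-75839934, the Prdx4 window on the minus strand at chrX:155338411-155338710 and the Txnip window on the plus strand at chr3:96557707-96558006.
Glrx: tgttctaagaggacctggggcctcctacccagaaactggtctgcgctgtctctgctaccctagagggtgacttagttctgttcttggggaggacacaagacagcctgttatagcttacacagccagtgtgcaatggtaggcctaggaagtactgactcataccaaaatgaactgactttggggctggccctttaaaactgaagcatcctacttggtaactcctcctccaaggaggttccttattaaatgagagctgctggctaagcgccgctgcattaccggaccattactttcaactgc
Prdx4: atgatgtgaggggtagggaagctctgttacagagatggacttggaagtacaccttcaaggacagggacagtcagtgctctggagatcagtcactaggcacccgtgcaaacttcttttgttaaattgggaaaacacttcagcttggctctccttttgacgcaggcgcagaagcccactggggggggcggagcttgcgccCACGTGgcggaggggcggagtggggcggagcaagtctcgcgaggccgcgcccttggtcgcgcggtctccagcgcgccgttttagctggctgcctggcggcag
Txnip: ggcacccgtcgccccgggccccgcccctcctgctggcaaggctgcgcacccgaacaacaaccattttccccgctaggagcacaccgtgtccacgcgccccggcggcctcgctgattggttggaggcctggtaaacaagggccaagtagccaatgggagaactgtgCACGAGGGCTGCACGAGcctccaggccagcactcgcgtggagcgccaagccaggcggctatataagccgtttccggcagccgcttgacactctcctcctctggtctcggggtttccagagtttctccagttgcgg
Capitals in the Prdx4 window mark the E box CACGTG, which begins 52 bases before the start. Capitals in the Txnip window mark CACGAG, the 5 bases after it and a second CACGAG, beginning 85 bases before the start. The carbohydrate response element through which the glucose-sensing factors Mlxip and Mlxipl act on Txnip is known to be a pair of E-box-like motifs 5 bases apart. All 10 genes had at least 1 window among the 32544 searched, on both strands. The core of the antioxidant response element, TGACNNNGC, was in none of the windows of the 10 genes and in 12.4% of all windows. CACGTG was in windows of 2 of the 10 genes, Prdx4 and Glrx2, and in 7.17% of all windows. ACGTG, the core of the hypoxia response element, which CACGTG contains, was in windows of 3 of the 10 genes, Prdx4, Glrx2 and Txnrd2, and in 19.7% of all windows. A gene was counted if any of its windows matched, and Glrx2 had several windows, of which only window 4 did. Counts of genes and shares of windows are therefore not directly comparable. The pair of CACGAG motifs with 5 bases between them was searched only after the Txnip window had been read. It was in 1 window of all, that of Txnip itself, 0.00307%. The exact letters were taken from that window, so this share does not tell how rare pairs of E-box-like motifs are. These matches describe the letters of the windows.

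Several facts of the arrays bear on the values below. Control lung 1 stood apart in neutrophil markers, with a mean log2 level of 13.06 over S100a8, S100a9 and Cxcr2, and the other controls ranged between 8.55 and 10.61. Cobalt tumour 6 had a mean correlation over all genes of 0.945 with the other cobalt tumours and 0.969 with control lung. Xist, the RNA of the silenced X chromosome of females, was high (above 10) in 2 of 6 spontaneous tumours, 4 of 6 cobalt tumours and 6 of 6 controls, so sex and group cannot be fully told apart. The description field of control lung 6 names a spontaneous tumour, whereas the other labels of that array name a control, and its mean correlation with the other controls was 0.989. The labelled lung origin fitted the markers: the 9 measured alveolar type 2 genes had a mean level of 12.41 to 13.93 in spontaneous tumours, 13.5 to 13.64 in cobalt tumours and 12.84 to 13.1 in controls. Spontaneous tumours 2 (12.58) and 6 (12.41) lay below every control, and the remaining spontaneous tumours ranged between 13.75 and 13.93. Some fits below leave out both. Of these 9 genes, 4 were higher and 0 lower in spontaneous tumours, and 6 were higher and 1 lower, Lyz2 (-0.65), in cobalt tumours. All 8 endothelial and all 5 ciliated cell genes were lower in each tumour group. Of the 6 measured alveolar macrophage genes, 3 were higher and 0 lower in spontaneous tumours (Siglecf by 1.32, Fabp4 by 2.49 and Mrc1 by 1.15). In cobalt tumours 1 was higher, Fabp4 (1.5), and 1 was lower, Car4 (-2.1). The mean level of these 6 genes was 8.99 to 11.77 in spontaneous tumours, 8.68 to 10.37 in cobalt tumours and 8.82 to 9.54 in controls. Of the 5 heart muscle genes, 4 were lower in each tumour group, with mean levels of 5.06 to 7.24 in spontaneous tumours, 5.14 to 7.59 in cobalt tumours and 9.52 to 10.14 in controls. The part of these marker differences in the results below was not tested. Marker levels are only set beside some of the results. For sex and for arrays that stood apart, fits without some arrays or with Y-linked RNA as a covariate are given.

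Of the 10 genes, 5 were higher in spontaneous tumours than in control lung, Prdx2, Prdx3, Prdx4, Glrx and Glrx2, and 1 was lower, Txnip (limma, adjusted p under 0.05 with Benjamini-Hochberg adjustment over all genes). The background in this comparison was 34.6% of all genes called, 16.4% higher and 18.2% lower. In cobalt tumours against control lung, 5 of the 10 were higher, Prdx2, Prdx3, Prdx4, Glrx and Glrx2, and 0 were lower. There the background was 34.0% called, 14.7% higher and 19.3% lower. Both comparisons share the same 6 control arrays, so their calls are not independent of each other. The median log2 difference of the 10 genes was 0.52 in spontaneous tumours and 0.36 in cobalt tumours, and the median of all genes was -0.03 in each. By compartment, the calls of the higher genes fell on 2 of 5 mitochondrial proteins (Prdx3, Glrx2), 2 of 4 cytosolic ones (Prdx2, Glrx) and the 1 of the endoplasmic reticulum (Prdx4), in each tumour group.

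**Figure D1:**
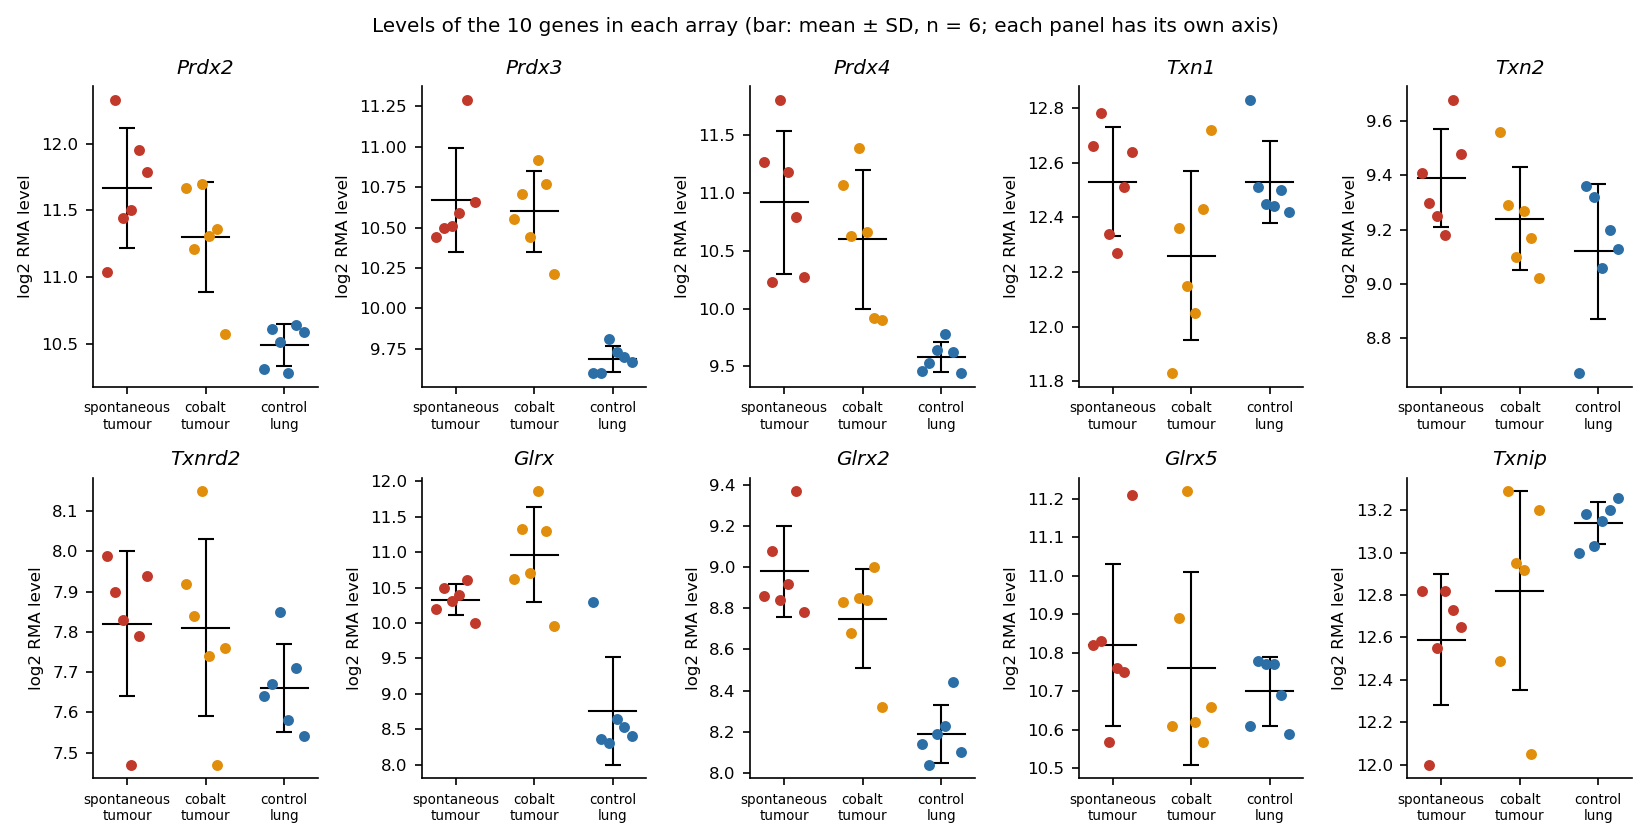
Level of each of the 10 genes on the log2 RMA scale in every array, with spontaneous tumours left, cobalt tumours in the middle and control lung right; bars are the mean and SD of 6 arrays, and each panel has its own axis. Prdx3 and Prdx4 lay above all controls in every tumour of both groups, and the single high control point for Glrx is control lung 1 at 10.3.

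All 3 peroxiredoxins were higher in both tumour groups. The mitochondrial peroxiredoxin Prdx3 separated tumour from normal lung most tightly. Its lowest, median and highest levels were 10.44, 10.55 and 11.29 in spontaneous tumours. They were 10.21, 10.63 and 10.92 in cobalt tumours. They were 9.6, 9.69 and 9.81 in control lung. All 12 tumours thus lay above all 6 controls, and the controls spanned a narrow range. Prdx3 was 1.97-fold higher in spontaneous tumours than in controls (log2 difference 0.98 ± 0.14 SE, 95% interval 0.69 to 1.26, limma adjusted p = 2.98e-05). It was 1.88-fold higher in cobalt tumours than in controls (0.91 ± 0.14 SE, 0.63 to 1.2, adjusted p = 5.81e-05). Spontaneous tumour 5 was highest at 11.29, and without it the difference was 0.85.

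Prdx4 is the peroxiredoxin of the endoplasmic reticulum, where it passes oxidising equivalents to protein disulfide isomerases. Its lowest, median and highest levels were 10.23, 10.99 and 11.81 in spontaneous tumours. They were 9.9, 10.65 and 11.39 in cobalt tumours. They were 9.44, 9.58 and 9.78 in control lung. Every tumour lay above every control, but the tumours were spread more widely than the controls, with an SD of 0.62 in spontaneous tumours and 0.6 in cobalt tumours against 0.13 in controls. The difference from control lung was 1.34 ± 0.27 SE in spontaneous tumours (2.54-fold, 95% interval 0.77 to 1.92, limma adjusted p = 0.000956). It was 1.02 ± 0.27 SE in cobalt tumours (2.02-fold, 0.44 to 1.59, adjusted p = 0.00751). Prdx4 lies on the X chromosome. Spontaneous tumours with high Xist had 10.27 and 11.18, and those with low Xist ranged between 10.23 and 11.81. Cobalt tumours with high Xist ranged between 9.9 and 11.39, and those with low Xist had 10.66 and 11.07. The 2 kinds of tumour overlapped in each group, and among high-Xist arrays alone the difference was 1.15 (adjusted p = 0.0343) in spontaneous and 0.88 (adjusted p = 0.0328) in cobalt tumours.

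Prdx2 is a cytosolic peroxiredoxin that is also abundant in red cells. Its lowest, median and highest levels were 11.04, 11.64 and 12.33 in spontaneous tumours. They were 10.57, 11.34 and 11.7 in cobalt tumours. They were 10.28, 10.55 and 10.64 in control lung. Every spontaneous tumour and 5 of 6 cobalt tumours exceeded all controls, and cobalt tumour 6 at 10.57 lay among them. Prdx2 was 2.27-fold higher in spontaneous tumours (1.18 ± 0.2 SE, 95% interval 0.76 to 1.6, limma adjusted p = 0.000188) and 1.76-fold higher in cobalt tumours (0.81 ± 0.2 SE, 0.39 to 1.23, adjusted p = 0.00402). The 4 measured red cell genes had mean levels of 5.38 to 6.53 in spontaneous tumours, 5.52 to 6.67 in cobalt tumours and 6.61 to 7.39 in controls. Among them Alas2, which makes heme in red cell precursors, fell by 3.89 in spontaneous tumours and fell by 3.37 in cobalt tumours on the log2 scale, and the other 3 did not pass the test.

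The thioredoxins and the mitochondrial reductase did not pass the test in either tumour group. Txn1, the cytosolic thioredoxin, had lowest, median and highest levels of 12.27, 12.58 and 12.78 in spontaneous tumours. It had 11.83, 12.26 and 12.72 in cobalt tumours, and 12.42, 12.48 and 12.83 in control lung. The spontaneous tumours overlapped the controls, and 4 of 6 cobalt tumours lay below all controls. The difference from control lung was 0.01 in spontaneous tumours (95% interval -0.27 to 0.29, limma adjusted p = 0.968). Its sign turned under cyclic loess normalization (-0.16) and with array weights (-0.03). In cobalt tumours it was -0.27 (-0.54 to 0.01, adjusted p = 0.132). That value passed the threshold without cobalt tumour 6 (-0.36, adjusted p = 0.0247), under cyclic loess normalization (-0.43, adjusted p = 0.0181) and with array weights (-0.28, adjusted p = 0.0465). It was smaller without cobalt tumour 1 (-0.18, adjusted p = 0.298), without control lung 1 (-0.21, adjusted p = 0.269), with Y-linked RNA as a covariate (-0.21, adjusted p = 0.283) and among high-Xist arrays alone (-0.11, adjusted p = 0.572).

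Txn2, the mitochondrial thioredoxin that recharges Prdx3, had 9.18, 9.36 and 9.68 in spontaneous tumours, 9.02, 9.22 and 9.56 in cobalt tumours and 8.67, 9.16 and 9.36 in control lung. All 3 groups overlapped. The difference from control lung was 0.26 (95% interval 0.01 to 0.51, limma adjusted p = 0.0968) in spontaneous tumours and 0.11 (adjusted p = 0.508) in cobalt tumours. Txnrd2, the reductase that serves Txn2, had 7.47, 7.86 and 7.99 in spontaneous tumours, 7.47, 7.8 and 8.15 in cobalt tumours and 7.54, 7.66 and 7.85 in control lung. Its difference from control lung was 0.15 in each tumour group, with 95% intervals of -0.07 to 0.37 and limma adjusted p of 0.281 in spontaneous and 0.302 in cobalt tumours. In spontaneous tumours the upper bounds of 0.51 for Txn2 and 0.37 for Txnrd2 lay below the lower bound of 0.69 for Prdx3. These are separate intervals for each gene, and the genes were not tested against each other. Differences also varied between probe sets of the same gene, as given below.

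**Figure D2:**
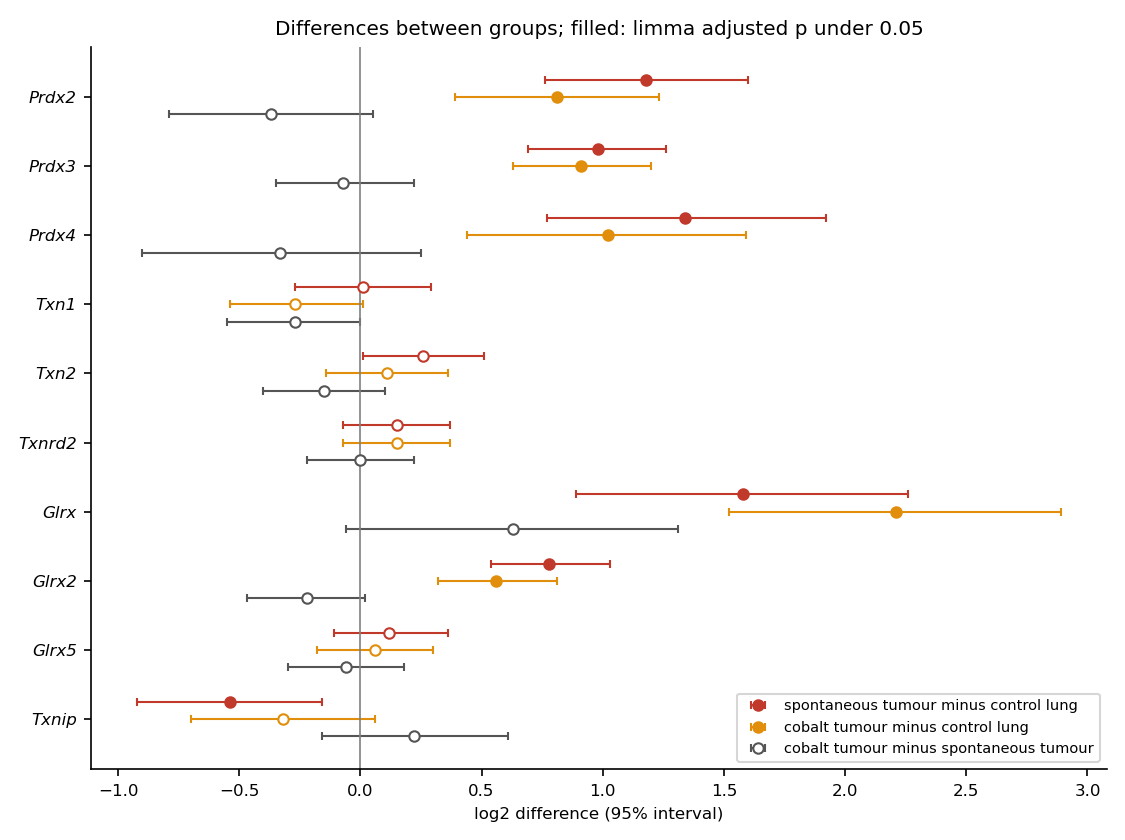
Log2 difference and 95% interval for each of the 10 genes in 3 comparisons: spontaneous tumour minus control lung, cobalt tumour minus control lung, and cobalt tumour minus spontaneous tumour; filled points have a limma adjusted p under 0.05. Prdx2, Prdx3, Prdx4, Glrx and Glrx2 lie right of 0 in both comparisons with control lung, Txnip lies left of 0 in both, and the cobalt against spontaneous comparison has no filled point.

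Of the 3 glutaredoxins, 2 were higher in both tumour groups. Glrx, the cytosolic glutaredoxin that removes glutathione from modified proteins, had the largest difference of the 10 genes. Its lowest, median and highest levels were 10.0, 10.35 and 10.6 in spontaneous tumours. They were 9.96, 11 and 11.86 in cobalt tumours. They were 8.31, 8.47 and 10.3 in control lung. The highest control, control lung 1 at 10.3, lay within the range of both tumour groups, while the other 5 controls were at most 8.64 and lay below every tumour. Glrx was 4.62-fold higher in cobalt tumours than in controls (log2 difference 2.21 ± 0.32 SE, 95% interval 1.52 to 2.89, limma adjusted p = 5.59e-05). It was 2.99-fold higher in spontaneous tumours than in controls (1.58 ± 0.32 SE, 0.89 to 2.26, adjusted p = 0.00107). Without control lung 1, the difference was 2.51 in cobalt tumours (adjusted p = 2.4e-06) and 1.89 in spontaneous tumours (adjusted p = 2.8e-05). Among high-Xist arrays alone it was 2.07 in cobalt tumours (adjusted p = 0.00291) and 1.44 in spontaneous tumours, which missed the threshold (adjusted p = 0.0574).

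**Figure D3:**
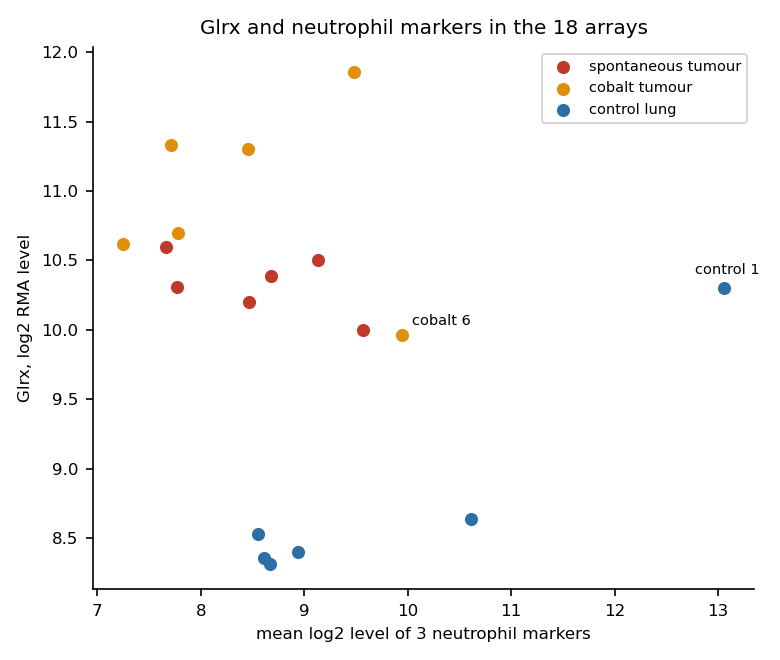
Glrx level (vertical, log2 RMA) against the mean log2 level of the neutrophil markers S100a8, S100a9 and Cxcr2 (horizontal) in the 18 arrays. Control lung 1, at 13.06 on the neutrophil axis and 10.3 for Glrx, stands apart from the other controls, whereas the tumours have high Glrx at neutrophil levels of 7.25 to 9.94.

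Control lung 1 was high both in Glrx and in the neutrophil markers, as the plot of Glrx against those markers shows. None of the 3 measured neutrophil genes passed the test in either tumour group, and their mean level was 7.66 to 9.57 in spontaneous tumours, 7.25 to 9.94 in cobalt tumours and 8.55 to 13.06 in controls. Retnlg, the other gene of that list, was not analysed here. Control lung 4 was next highest in the neutrophil markers at 10.61 and had a Glrx level of 8.64.

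Glrx2, a mitochondrial glutaredoxin that can bind an iron-sulfur cluster, had lowest, median and highest levels of 8.78, 8.89 and 9.37 in spontaneous tumours. It had 8.32, 8.83 and 9.0 in cobalt tumours, and 8.04, 8.17 and 8.44 in control lung. All spontaneous tumours lay above all controls, and cobalt tumour 6 at 8.32 fell within the control range. The difference from control lung was 0.78 ± 0.12 SE in spontaneous tumours (1.72-fold, 95% interval 0.54 to 1.03, limma adjusted p = 5.94e-05). It was 0.56 ± 0.12 SE in cobalt tumours (1.48-fold, 0.32 to 0.81, adjusted p = 0.00112). Glrx5, the mitochondrial monothiol glutaredoxin that hands on iron-sulfur clusters during their assembly, had 10.57, 10.79 and 11.21 in spontaneous tumours. It had 10.57, 10.64 and 11.22 in cobalt tumours, and 10.59, 10.73 and 10.78 in control lung. The groups overlapped, and the difference from control lung was 0.12 (limma adjusted p = 0.423) in spontaneous and 0.06 (adjusted p = 0.717) in cobalt tumours. Under cyclic loess normalization it was -0.04 in cobalt tumours, so its sign is not settled.

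Txnip, the thioredoxin inhibitor, was lower in spontaneous tumours. Its lowest, median and highest levels were 12.0, 12.69 and 12.82 in spontaneous tumours. They were 12.05, 12.93 and 13.29 in cobalt tumours. They were 13, 13.17 and 13.26 in control lung. Every spontaneous tumour lay below every control, and 4 of 6 cobalt tumours did. Txnip fell by 0.54 ± 0.18 SE in spontaneous tumours (1.46-fold lower, 95% interval -0.92 to -0.16, limma adjusted p = 0.0279). In cobalt tumours the difference was -0.32 (-0.7 to 0.06, adjusted p = 0.198). It was -0.16 without cobalt tumour 5 (adjusted p = 0.455), and it passed the threshold under cyclic loess normalization (-0.5, adjusted p = 0.0418). The call in spontaneous tumours was lost when either of 2 arrays was left out: without spontaneous tumour 2 the difference was -0.42 (adjusted p = 0.0652), and without control lung 6 it was -0.52 (adjusted p = 0.054). Among high-Xist arrays alone it was -0.4 (adjusted p = 0.283), and with Y-linked RNA as a covariate -0.42 (adjusted p = 0.179). The second Txnip probe set, whose mean level was 12.21, was lower in both groups, with differences of -0.91 (adjusted p = 0.00766) in spontaneous and -0.71 (adjusted p = 0.0325) in cobalt tumours.

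An exact permutation test of the difference in means over all assignments of the arrays to 2 groups of 6, adjusted over all genes, called Prdx2, Prdx3, Prdx4, Glrx and Glrx2 in both tumour groups and Txnip in spontaneous tumours, against 34.8% of all genes in spontaneous and 35.2% in cobalt tumours. Its adjusted p in spontaneous tumours was 0.0102 for Prdx2, Prdx3, Prdx4, Glrx2 and Txnip, whose groups do not overlap, and 0.0234 for Glrx. In cobalt tumours it was 0.0115 for Prdx3 and Prdx4, 0.0183 for Glrx and Glrx2 and 0.0297 for Prdx2. The smallest two-sided p this design allows is 0.00216. Of the 10 genes, 5 did not overlap between spontaneous tumours and controls, against 21.1% of all genes, and 2 did not overlap between cobalt tumours and controls, against 18.9% of all genes.

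The other probe sets of the genes mostly moved with the brightest one. For Prdx4 all 4 probe sets were higher in both tumour groups, with differences of 0.21 to 1.69 in spontaneous and 0.24 to 1.56 in cobalt tumours, the smallest on a probe set with a mean level of 4.16. Both Glrx probe sets were higher in both groups. The second Prdx2 probe set, with a mean level of 8.21, was higher in spontaneous tumours (0.55, adjusted p = 0.0145) but gave 0.36 in cobalt tumours (adjusted p = 0.104). Of the 3 Glrx2 probe sets, all were higher in spontaneous and 2 in cobalt tumours, and the remaining one gave 0.31 (adjusted p = 0.0821). None of the probe sets of Txn1, Txn2 and Glrx5 passed in either group, and 1 of 4 for Txnrd2 passed in cobalt tumours (0.3, adjusted p = 0.0175). Adjusted p-values here come from limma over all probe sets with a single gene symbol.

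**Figure D4:**
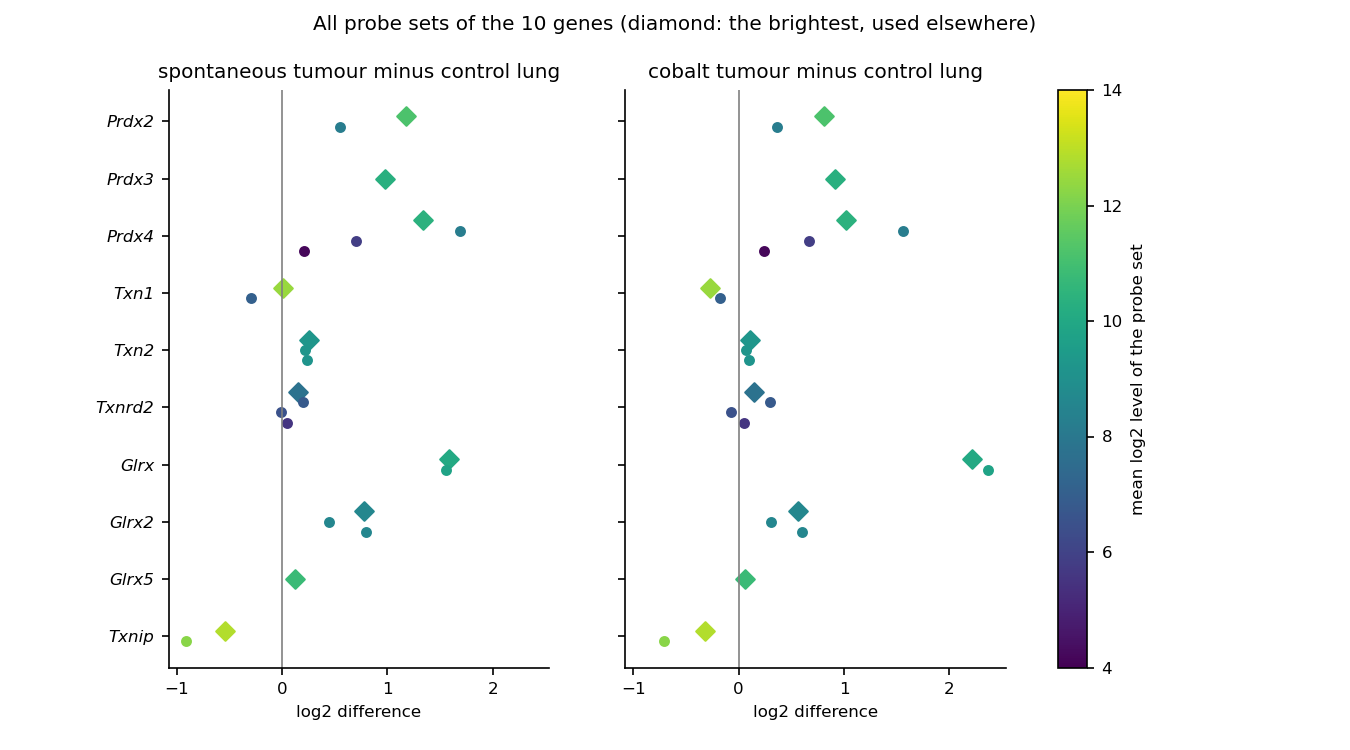
Log2 difference of each of the 24 probe sets, for spontaneous tumour minus control lung (left) and cobalt tumour minus control lung (right); diamonds are the brightest probe set of each gene, circles the others, and colour gives the mean log2 level. All 4 Prdx4 probe sets lie right of 0 and both Txnip probe sets left of 0 in each panel.

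In cobalt tumours against spontaneous tumours, 0 of the 10 genes passed the test, against a background of 0.0824% of all genes. At an unadjusted limma p under 0.05, 0 of the 10 and 11.6% of all genes passed. The permutation test called 0 of all genes. Its smallest possible p passes adjustment only when enough genes reach it, and too few did here. Glrx had the largest difference. It ranged between 9.96 and 11.86 in cobalt tumours and between 10.0 and 10.6 in spontaneous tumours. Of the cobalt tumours, 5 lay above all spontaneous ones, and cobalt tumour 6 lay below all of them. The difference was 0.63 (1.55-fold, 95% interval -0.06 to 1.31, limma adjusted p = 0.479). Without cobalt tumour 6 it was 0.83 (adjusted p = 0.204), and without control lung 1 as well it was 0.83 (adjusted p = 0.0679). Over all fits that left out 1 array, the Glrx difference ranged between 0.45 and 0.83, with limma adjusted p between 0.204 and 0.73. Prdx2 gave -0.37 (-0.79 to 0.05, adjusted p = 0.501), Prdx4 -0.33 (-0.9 to 0.25, adjusted p = 0.701), and Prdx3 -0.07 (-0.35 to 0.22, adjusted p = 0.897). Glrx2 gave -0.22 (adjusted p = 0.489) and Txnip 0.22 (adjusted p = 0.693). Leaving out 1 array moved these values: Prdx2 was -0.22 without cobalt tumour 6 and -0.24 without spontaneous tumour 2. Prdx4 was -0.15 without spontaneous tumour 3, -0.19 without cobalt tumour 5 or cobalt tumour 6, and -0.67 without both spontaneous tumours 2 and 6. Glrx2 was -0.13 without cobalt tumour 6 and -0.14 without spontaneous tumour 5. Txnip was 0.11 without spontaneous tumour 2, 0.13 without cobalt tumour 2 and 0.38 without cobalt tumour 5. None of these values passed the test. These intervals do not show that the tumours are alike: for Glrx they hold a difference of up to 1.31. The intervals rest on a spread pooled over all groups, control lung included. The SD in spontaneous tumours, cobalt tumours and controls was 0.62, 0.6 and 0.13 for Prdx4 and 0.45, 0.41 and 0.16 for Prdx2. For Prdx3 it was 0.32, 0.25 and 0.08. The intervals of these genes may thus be too narrow for the tumours alone. The SD of Glrx was largest in controls, at 0.22, 0.67 and 0.76 in the same order. The 5 measured proliferation genes had a mean level of 5.73 to 8.58 in cobalt and 7.82 to 9.63 in spontaneous tumours, ranges that overlap, and none of the 5 passed in this comparison.

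Across the 18 arrays, the genes with levels most like each gene were ranked by Pearson r among 11711 genes outside the dimmest ones. All r are given without a test. For the genes that passed against control lung they mainly describe the group pattern, since tumour and control arrays form separate groups. The closest genes were Wdr77 (0.962) and Dennd2d (0.962) for Prdx3, Gsap (0.952) and Pkib (0.945) for Prdx4, and Pfdn4 (0.96) and Epha4 (0.947) for Prdx2. They were Adssl1 (0.929) and B4galt3 (0.917) for Glrx, Rab38 (0.949) and Mvb12a (0.946) for Glrx2, and Zfp101 (0.887) and Mxd4 (0.85) for Txnip. For the genes that did not pass the test they were Fxyd5 (0.904) and Prkcd (0.89) for Txn1 and Utp25 (0.795) and Rps19bp1 (0.794) for Txn2. They were B4galt2 (0.767) and Akr1c12 (0.731) for Txnrd2, and Rdh14 (0.9) and Dlst (0.871) for Glrx5. Tumour and control levels of these genes overlap, so single arrays can weigh heavily in r. Spearman's rho, which uses only ranks, was in the same order 0.792 and 0.822 for Txn1 and 0.614 and 0.728 for Txn2. It was 0.759 and 0.754 for Txnrd2, and 0.697 and 0.538 for Glrx5. Adssl1, picked for its likeness to Glrx, had group means of 10.64 in cobalt tumours, 9.95 in spontaneous tumours and 7.93 in control lung. B4galt3, picked in the same way, had 9.93 in cobalt tumours, 10.01 in spontaneous tumours and 9.04 in control lung. The order of the tumour groups thus matched that of Glrx for Adssl1 and not for B4galt3.

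The genes that feed electrons to the 10 were read from lists chosen by function. Of 18 other measured genes of the thioredoxin system and related thiol repair, 7 were higher and 2 lower in spontaneous tumours, and 5 were higher and 3 lower in cobalt tumours, with median log2 differences of 0.26 in spontaneous and 0.11 in cobalt tumours. Txnrd1, the cytosolic reductase of Txn1, was higher by 0.42 in spontaneous (limma adjusted p = 0.00597) and by 0.65 in cobalt tumours (adjusted p = 0.000152). Txnrd3, a reductase that also reduces glutathione disulfide, passed narrowly, by 0.82 in spontaneous (adjusted p = 0.0484) and 0.84 in cobalt tumours (adjusted p = 0.0436). Glrx3, a cytosolic glutaredoxin, was higher by 0.47 in spontaneous and 0.39 in cobalt tumours, read from a probe set that is not its brightest, since brighter ones carry several symbols. Srxn1, which repairs overoxidised peroxiredoxins, gave 0.2 in spontaneous (adjusted p = 0.32) and 0.02 in cobalt tumours (adjusted p = 0.945). The stress-responsive sestrins differed in direction: Sesn3 was higher by 1.19 in spontaneous and 0.87 in cobalt tumours and Sesn2 by 0.67 in spontaneous and 0.75 in cobalt tumours, while Sesn1 was lower, at -1.53 in spontaneous and -1.63 in cobalt tumours. Msrb3, a methionine sulfoxide reductase, was lower in spontaneous tumours (-1.29), and Nxn, nucleoredoxin, (-1.03) and Msra (-0.58) were lower in cobalt tumours. The peroxiredoxins Prdx1, Prdx5 and Prdx6 were not analysed here.

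Glutathione supplies the glutaredoxins with electrons. Of 9 measured genes of its supply, 3 were higher and 0 lower in spontaneous tumours, and 3 were higher and 2 lower in cobalt tumours. Gclc, the catalytic subunit of the rate-limiting enzyme of glutathione synthesis, was higher by 1.18 in spontaneous (limma adjusted p = 0.000168) and 1.21 in cobalt tumours (adjusted p = 0.000136). Its modifier subunit Gclm gave -0.36 in spontaneous tumours (adjusted p = 0.199) and fell by 0.63 in cobalt tumours (adjusted p = 0.027). Ggct and Oplah, enzymes that recycle glutathione's glutamyl part, were higher by 1.51 and 0.58 in spontaneous and by 1.5 and 0.63 in cobalt tumours, and Chac1, which degrades glutathione, fell by 1.06 in cobalt tumours. Gsr, glutathione reductase, did not pass (0.71 with adjusted p = 0.104 in spontaneous, 0.36 with adjusted p = 0.435 in cobalt tumours).

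NADPH is the electron source of both systems. Of 16 measured genes of NADPH supply, 5 were higher and 1 lower in each tumour group. Pgd, Tkt and Taldo1 did not pass in either group, and G6pdx was not analysed here. Me1, cytosolic malic enzyme, was 4.74-fold higher in spontaneous (limma adjusted p = 2.66e-08) and 3.01-fold higher in cobalt tumours (adjusted p = 1.01e-06). Idh1, cytosolic isocitrate dehydrogenase, was 2.75-fold higher in spontaneous and 2.04-fold higher in cobalt tumours. Nnt, which makes NADPH in mitochondria, was 1.59-fold higher in spontaneous and 1.6-fold higher in cobalt tumours. Aldh1l2 was higher (0.9) and Aldh1l1 lower (-1.0) in spontaneous tumours, both enzymes of folate metabolism, and Me2, a mitochondrial malic enzyme, was lower in cobalt tumours (-0.59). Aldh1l2 was dim, with mean levels of 6.09 in spontaneous tumours and 5.19 in control lung, below every array median (6.32 to 6.45).

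Around Prdx4, 16 genes of oxidative protein folding in the endoplasmic reticulum were measured, of which 5 were higher and 1 lower in spontaneous tumours, and 5 were higher and 2 lower in cobalt tumours. Pdia4, P4hb and Erp29, protein disulfide isomerase family members, were higher by 0.87, 0.74 and 0.73 in spontaneous and by 1.09, 0.78 and 0.71 in cobalt tumours. Ero1a, the oxidase that makes disulfides for these isomerases, was higher in spontaneous tumours (0.89, limma adjusted p = 0.0121) and gave 0.41 in cobalt tumours (adjusted p = 0.248). Gpx7, a peroxidase of the same compartment, fell by 0.97 in spontaneous tumours and fell by 1.23 in cobalt tumours, and Gpx8 fell by 1.48 in cobalt tumours.

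Around Glrx5 and Glrx2, 14 genes of iron-sulfur cluster assembly were measured. Of these, 2 were higher and 1 lower in spontaneous tumours, and 3 were higher and 1 lower in cobalt tumours. Both shares called were below those of all genes, 34.6% in spontaneous and 34.0% in cobalt tumours. The scaffold Iscu fell by 0.73 in spontaneous tumours and fell by 0.65 in cobalt tumours. The chaperone Hspa9 was higher by 0.77 in spontaneous and 0.75 in cobalt tumours, and the sulfur donor Nfs1 by 0.42 in spontaneous and 0.29 in cobalt tumours. The iron carrier Slc25a37 passed narrowly in cobalt tumours, by 0.57 (limma adjusted p = 0.0468).

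Around Txnip, 12 of its relatives and genes of glucose sensing were measured, of which 4 were higher and 5 lower in spontaneous tumours, and 3 were higher and 4 lower in cobalt tumours. Txnip is known to draw glucose transporters from the cell surface, and to be induced by glucose through Mlxip and Mlxipl. Slc2a1, the main glucose transporter of many tumours, was higher by 1.96 in spontaneous and 1.87 in cobalt tumours, and Hk2, a hexokinase, by 2.14 in spontaneous and 2.58 in cobalt tumours. The differences were -0.77 in spontaneous and -0.6 in cobalt tumours for Mlxip, and -0.38 in spontaneous and -0.48 in cobalt tumours for Mlxipl. Mlx, of the same list, went the other way, at 0.51 in spontaneous (limma adjusted p = 0.0386) and 0.34 in cobalt tumours (adjusted p = 0.166). Mlxipl was dim, with mean levels of 5.22 in spontaneous tumours, 5.12 in cobalt tumours and 5.6 in control lung, below every array median (6.32 to 6.45). Arrdc4, the closest relative of Txnip among the arrestin-domain genes, was lower in spontaneous tumours (-0.51, limma adjusted p = 0.0294) and gave -0.21 in cobalt tumours (adjusted p = 0.39). Arrdc3 (-0.77 in spontaneous and -0.78 in cobalt tumours) and Arrdc2 (-0.45 in spontaneous and -0.63 in cobalt tumours) were lower, while Arrdc1 was higher (0.63 in spontaneous and 0.88 in cobalt tumours). Arrdc2 was dim as well, with a mean level of 6.28 in control lung. None of the genes in these 6 lists passed in cobalt against spontaneous tumours.

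**Figure D5:**
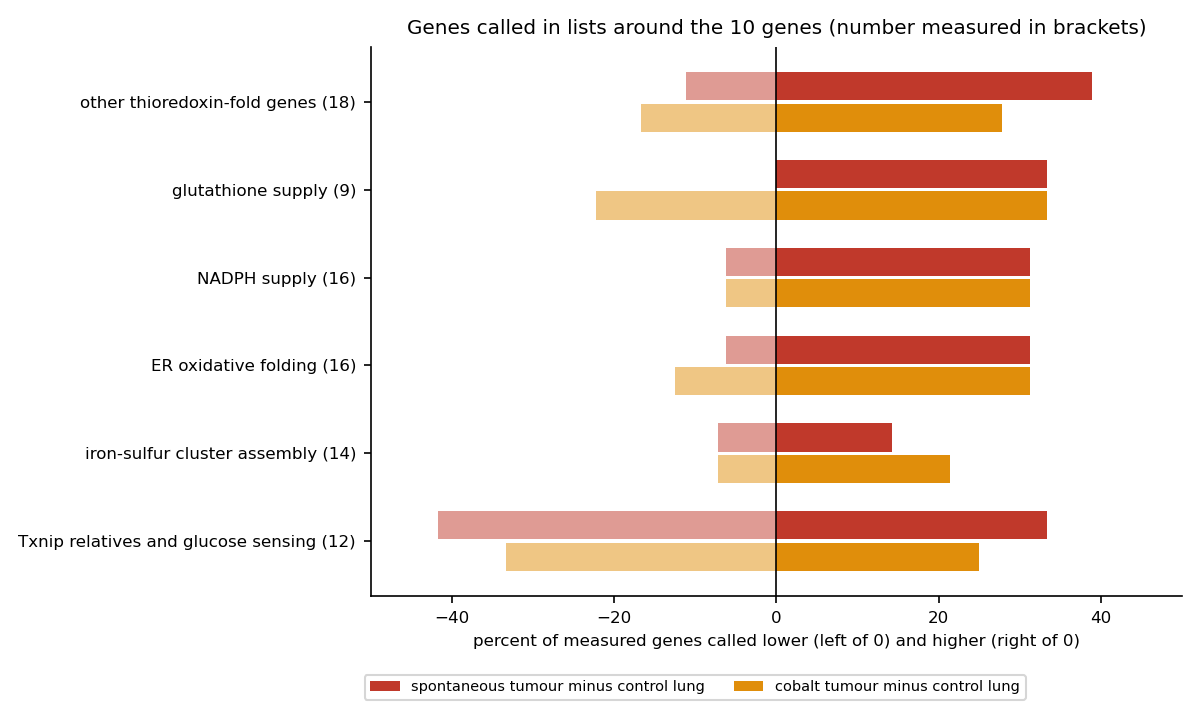
Percent of the measured genes of each list that were lower (pale bars, left of 0) and higher (full bars, right of 0) than in control lung at a limma adjusted p under 0.05, for spontaneous and cobalt tumours; the number of genes measured is in brackets. Over all genes, 16.4% were higher and 18.2% lower in spontaneous tumours, and 14.7% were higher and 19.3% lower in cobalt tumours.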

How the data were processed

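The 18 arrays were divided into 6 spontaneous tumours, 6 cobalt tumours and 6 control lungs by the group label. The deposited series table held log2 values made by the authors with RMA, per the submitters' processing notes. Its version is not given in the sources used here. Array medians were 6.32 to 6.45, and the number of arrays limits the precision. Of 45101 probe sets, 64 were controls, 34945 carried 1 gene symbol, 932 several and 9160 none, from GEO's platform annotation, and 34741 were matched to RefSeq by Entrez identifier with 0 symbols differing. The brightest probe set by mean over all arrays stood for each of 18193 genes.

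Limma 3.58.1 in R 4.3.3 (lmFit and eBayes, 1 fit of all groups with 15 residual degrees of freedom) tested each difference, two-sided, with Benjamini-Hochberg adjustment over all genes at 0.05. The series' design text names the program ORIOGEN with a 5% limit on false discoveries, and it was not run. On simulated data for spontaneous tumour against control lung with 18193 genes, the fit recovered 82% of 100 genes changed by 1 and 97% of 100 changed by 2 on the log2 scale. It also called 15 unchanged genes. Each simulated gene had the same spread in all groups, and far fewer genes changed than were called in the real data. These rates therefore need not hold for the real comparison. An exact permutation test in Python 3.11.15 with scipy 1.17.1 was an alternative, beside another normalization, a filter on dim genes, the mean of all probe sets, array weights, fewer arrays, a replicate block and proxies of sex. Named genes were the 10 members, fixed relatives, up to 3 genes higher and 3 lower per list and comparison, and the 2 genes most like each member. Some further genes of the lists are named beside them. Members, lists and tests were chosen with earlier results of these data known. Promoters came from RefSeq (GRCm38.p6), and 0 value columns were left out.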

Additional observations from a re-analysis of the deposited data

Results flagged for a closer look

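Among the 30 sets of 6 values formed by the 10 genes in 3 groups, 5 held 1 array far from the other 5 by Dixon's criterion, which chance meets in about 1 of 20 sets. Control lung 1 was high in Glrx at 10.3, where the next control was at 8.64, and high in Txn1 at 12.83, where the next was at 12.51. Spontaneous tumour 5 was high in Prdx3 at 11.29, where the next tumour was at 10.66. Spontaneous tumour 4 was low in Txnrd2 at 7.47, where the next was at 7.79. Spontaneous tumour 2 was low in Txnip at 12.0, where the next was at 12.55.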

How the results depend on the processing

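Prdx2, Prdx3, Prdx4, Glrx and Glrx2 stayed higher in both tumour groups in every fit that left out 1 array, with 5 genes called each time. Elsewhere Glrx lost its call in spontaneous tumours among high-Xist arrays, and in cobalt tumours the dimmer Prdx2 probe set and 1 Glrx2 probe set missed the threshold. The count of lower genes in spontaneous tumours, 1 (Txnip), was 0 with the replicate block, with the Y-linked covariate, among high-Xist arrays and without spontaneous tumours 2 and 6, and between 0 and 1 when 1 array was left out. In cobalt tumours, where it was 0, it was 2 under cyclic loess (Txn1 and Txnip), 1 with array weights (Txn1) and between 0 and 1 with 1 array left out. The replicate numbers do not pair the arrays, with correlations of same-numbered deviations between -0.34 and 0.19 over 18 pairs. With the replicate block Txnip in spontaneous tumours kept -0.54 (limma adjusted p = 0.0538), 5798 genes were called in spontaneous and 5784 in cobalt tumours against control lung, and 1 between the tumour groups, and no other call of the 10 genes changed. The 15 genes called between cobalt and spontaneous tumours were 26 without the dimmest genes, 24 with array weights, 1 in a fit of those 12 arrays, 29 with the Y-linked covariate, 0 among high-Xist arrays, 54 without control lung 1 and cobalt tumour 6, 65 without spontaneous tumours 2 and 6, 0 by the permutation test, and between 1 and 82 with 1 array left out, the highest without cobalt tumour 6. Small differences changed sign. Txn1 in spontaneous tumours was -0.16 under cyclic loess, -0.14 for the mean of probe sets, -0.03 with array weights, -0.07 among high-Xist arrays, -0.08 without spontaneous tumours 2 and 6, -0.29 on its other probe set, and -0.04 to 0.07 with 1 array left out. Txnrd2 was -0.01 in spontaneous and -0.07 in cobalt tumours on 1 probe set, and Glrx5 was -0.0 in spontaneous and -0.04 in cobalt tumours under cyclic loess, with -0.03 to 0.1 in cobalt tumours when 1 array was left out. Between cobalt and spontaneous tumours, Prdx3 was 0.02 with array weights and 0.01 without control lung 1 and cobalt tumour 6 (-0.13 to 0.06 with 1 array left out), Prdx4 0.03 and Txn1 0.11 on another probe set, and Glrx5 0.02 with array weights and 0.04 without spontaneous tumours 2 and 6 (-0.15 to 0.02). Txnrd2 there was 0.02 under cyclic loess, 0.01 for the mean of probe sets, 0.06 with array weights, 0.03 with the Y-linked covariate, 0.1 among high-Xist arrays and on 1 probe set, 0.01 without control lung 1 and cobalt tumour 6, and 0.05 without spontaneous tumours 2 and 6 (-0.07 to 0.07). The cause of these changes was not tested. The dimmer probe sets lie nearer the background, which limits what they can show.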
